A study of Mus musculus with 6 samples.

Results

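Small nucleolar RNA host lncRNAs are long non-coding RNAs whose introns carry small nucleolar RNAs (snoRNAs). They were taken from the lncRNA rows of a heart RNA-seq table by name, as Snhg followed by a number, or Gas5, Zfas1 or Epb41l4aos. This gave 18 transcripts of 9413 lncRNAs and 18382 genes in all. The I/R group (ischaemia and reperfusion) was 3 hearts of male mice, perfused in isolation on a Langendorff system, arrested with Tomas cardioplegia (spelled as in the labels), a solution that stops the beat, for 30 min and then reperfused for 1 h. The Sham group was 3 hearts of male mice on the same system whose beating was not stopped. Strain and age were not given in the sources used here, and with no blood circulation the model holds only the cells that stay in a perfused heart. Levels are FPKM, fragments scaled by transcript length and by a total per library, computed by the authors. The totals recovered from them are separate for lncRNA and protein-coding rows, so each class is scaled to its own total. No sample of a heart before perfusion was analysed here.

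A host transcript is spliced, the snoRNA is trimmed out of the removed intron, and the joined exons remain as the lncRNA. SnoRNAs of the box C/D class guide methylation of ribosomal RNA and those of the H/ACA class guide its pseudouridylation. Many host RNAs begin with a tract of pyrimidines, as the mRNAs of ribosomal proteins do (5′ terminal oligopyrimidine, or TOP, RNAs), are bound by ribosomes, and are degraded by nonsense-mediated decay. Gas5 was first found as a transcript that accumulates when cell growth stops. Libraries of poly(A) RNA are meant to measure the joined exons and not the snoRNAs themselves. For some members the length behind the FPKM was close to the whole span, so reads from introns could be counted there. It was 2728 of 2969 bases for Snhg1, 1781 of 1880 for Snhg5 and 2153 of 2166 for Snhg20, but 738 of 2929 for Zfas1. How many reads come from introns was not tested.

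The start regions of 8 members are shown because the first bases set a TOP transcript apart. Each is 25 bases before and 25 bases from an annotated start, read from the RefSeq windows of build GRCm38.p6. Capitals mark a C followed by at least 4 bases that are each C or T, beginning within 5 bases of the start.
Snhg8, chr3:123508312-123508361, minus strand: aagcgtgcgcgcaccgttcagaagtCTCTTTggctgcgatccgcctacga
Gas5, inner start, chr1:161035141-161035190, plus strand: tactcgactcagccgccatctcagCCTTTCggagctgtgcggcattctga
Gas5, outer start, chr1:161034576-161034625, plus strand: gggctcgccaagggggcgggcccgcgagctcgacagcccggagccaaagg
Snhg12, chr4:132308653-132308702, plus strand: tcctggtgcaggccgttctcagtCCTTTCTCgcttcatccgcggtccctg
Snhg9, chr17:24719941-24719990, minus strand: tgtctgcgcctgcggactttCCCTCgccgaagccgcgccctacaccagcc
Zfas1, chr2:167062909-167062958, plus strand: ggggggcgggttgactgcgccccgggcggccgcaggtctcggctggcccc
Snhg14, chr7:60450153-60450202, minus strand: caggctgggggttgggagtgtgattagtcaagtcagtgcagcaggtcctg
Snhg17, outer start, chr2:158361498-158361547, minus strand: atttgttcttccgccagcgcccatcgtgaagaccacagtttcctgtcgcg
Snhg1, chr19:8723462-8723511, plus strand: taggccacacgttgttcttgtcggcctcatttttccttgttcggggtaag

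RefSeq windows were found for 15 of the 18 members. A tract near a start was found for 7 of these 15, against 18.3% of all 32851 windows and 44.4% of 63 windows of ribosomal protein genes. Here and below, a member counts if any of its windows matches, while the shares of windows are per window. Gas5 and Snhg17 have an outer and an inner window, and Gas5 has the tract in the inner window only. Snhg8 and the inner start of Gas5 begin on the tract itself, and Snhg1 begins ctcattttt, in which an A breaks the tract. The letters CGGAAG, searched on both strands of the whole RefSeq windows, were in windows of 8 of 15 members, against 16.9% of all windows. Of ribosomal protein windows 61.9% held them. CACGTG and TGACGTCA were each in 2 of 15, against 7.15% and 1.79% of all windows and 12.7% and 7.94% of ribosomal protein windows. These matches describe letters and not bound factors, and annotated starts can be off by several bases.

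RefSeq places a snoRNA gene inside the span of 16 of the 18 members. Snhg14, the long transcript of the imprinted region beside Ube3a, holds 206 of the 245 snoRNA genes in all members, Gas5 and Snhg1 hold 8 each, Snhg12 holds 4 (Snora16a, Snora44, Snora61 and Snord99), and Snhg16 (Snord1a, Snord1b and Snord1c) and Zfas1 (Snord12 among them) hold 3 each. Inside Snhg10 RefSeq lists Scarna13, a guide RNA of Cajal bodies, and inside Snhg20 the microRNA gene Mir6516, with no snoRNA gene in either. The symbols of 20 RefSeq genes fit the rule, and Snhg7 and Snhg11 were not analysed here. Coordinates below are those in the deposited table, which names no build. For 15 of the 17 members that have them, both ends lie close to those of RefSeq on GRCm38.p6, and Snhg14 and Snhg3 are the exceptions.

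All 18 host lncRNAs were detected in all 6 hearts, and no member passed the test between I/R and Sham hearts after adjustment over all genes. Limma called 0 of 18 members at an adjusted p under 0.05, with a smallest adjusted p of 0.591, where it called 0 of 12114 genes (0.0%). At an unadjusted p under 0.05 there was 1 member, Snhg9, where the share of all genes was 8.44%, with 4.23% above Sham and 4.21% below, and that of lncRNAs was 4.81% above and 6.02% below. With limma voom on recovered reads there were 0 members at that level and 0 after adjustment. The median change of the members, I/R minus Sham in log2(FPKM + 1), was −0.07, beside −0.03 over the 7073 lncRNAs tested. The change was below 0 for 12 members and above 0 for 6, but below 0 for 14 after quantile normalization and for 9 after scaling each library to a common median, and 50.3% of all genes and 54.1% of lncRNAs tested were below 0. The mean level in I/R ran from 0.686 times that in Sham (Snhg3) to 1.64 times (Snhg9).

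The totals behind the lncRNA FPKM were 2213168 to 2597795 reads in I/R and 2025331 to 2792592 in Sham. Of these reads the 18 members held 0.261% ± 0.00304 in I/R and 0.276% ± 0.0194 in Sham (SD, n = 3 each). Their summed level was 1383, 1424 and 1402 FPKM in I/R replicates 1, 2 and 3, against 1311, 1568 and 1381 FPKM in Sham replicates 1, 2 and 3. The I/R hearts lay within the range of the Sham hearts, and Sham replicate 2 was highest. This heart was the highest Sham heart for 13 of 18 members, where it was the highest for 32.0% of the 4470 lncRNAs at least as abundant as the lowest member. Summed levels of cell markers are given beside these values because, in whole tissue, fewer cells of a type and less RNA per cell cannot be told apart. Of ventricular cardiomyocyte markers 8 of 9 were listed, with sums of 11430.4 to 12201 FPKM in I/R and 11504 to 12461 in Sham. These sums are carried by the most abundant markers, and the median log2 change was −0.33 over the 8, with 1 of 8 above 0. For fibroblast markers it was 0.47, with 4 of 5 tested above 0. The median was 0.22 for macrophage markers (4 of 4 above 0), 0.12 for endothelial markers (2 of 3) and −0.40 for blood markers (0 of 2). Over all protein-coding genes tested it was 0.02. Sums in I/R and Sham were 293 to 333 and 209 to 285 for fibroblast markers (6 of 7 listed), 1096 to 1191 and 885 to 1064 for macrophage markers (4 of 7), 115 to 145 and 96.5 to 125 for endothelial markers (4 of 6), 1.09 to 6.20 and 1.86 to 6.54 for blood markers (2 of 5) and 0.463 to 1.05 and 0.603 to 1.35 for lymphocyte markers (3 of 5). No listed marker was at 0 in all hearts, and the part of cell composition in the results was not tested.

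**Figure D1:**
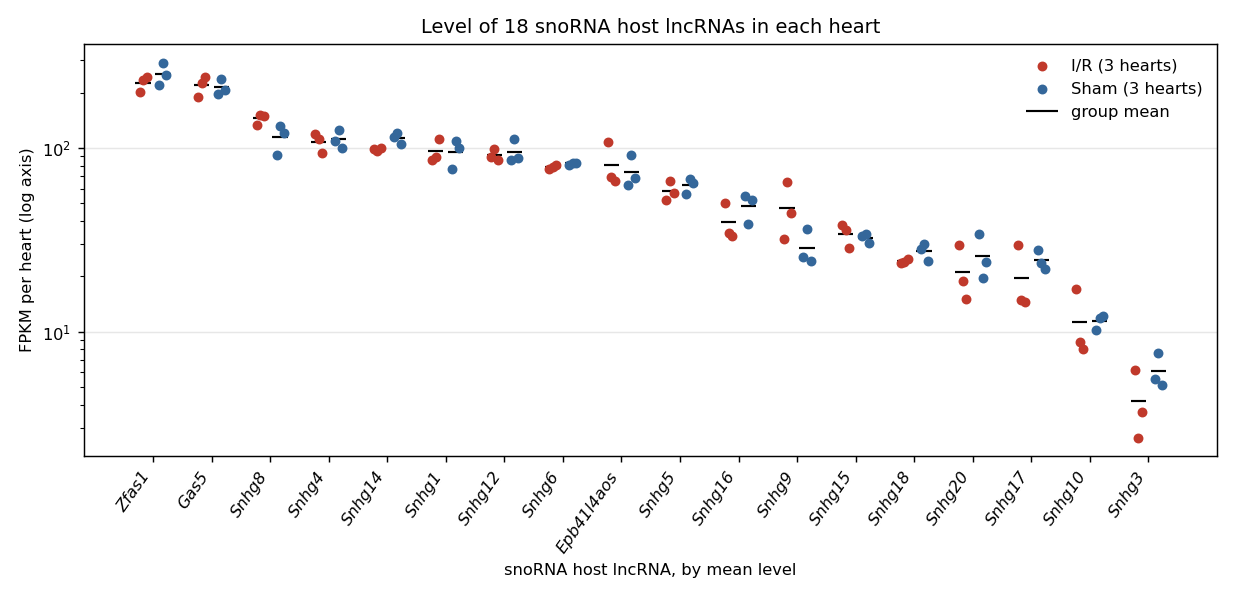
FPKM of each host lncRNA (log axis) in 3 I/R hearts (red, left of each pair) and 3 Sham hearts (blue), with black bars for group means. Mean levels ran from 239.5 FPKM for Zfas1 to 5.13 FPKM for Snhg3, and the groups overlapped for 15 of 18 members.

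Over the 6 hearts the most abundant member was Zfas1, followed by Gas5, Snhg8, Snhg4, Snhg14, Snhg1, Snhg12, Snhg6 and Epb41l4aos, then Snhg5, Snhg16, Snhg9, Snhg15, Snhg18, Snhg20, Snhg17, Snhg10 and Snhg3. Mean levels spanned 46.7-fold, and Zfas1 ranked 320 and Snhg3 4470 among the tested lncRNAs. The ranges of Zfas1 and Gas5 over the hearts overlapped, as did those of the neighbours from Snhg4 to Snhg12. Within single hearts Zfas1 was above Gas5 in all but I/R replicate 3, and Snhg4 was above Snhg12 in every heart. Zfas1 and Gas5 stood apart from the rest, as the lowest heart of Gas5 (190.2 FPKM) exceeded the highest heart of Snhg8 (151 FPKM).

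Among hosts with several snoRNAs, Zfas1 (ENSMUSG00000074578, chromosome 2, 167062934 to 167065862, plus strand), which runs antisense to the start of Znfx1, was at 202, 233 and 243 FPKM in the I/R hearts, against 219, 291 and 249.5 FPKM in the Sham hearts. Groups overlapped, with a log2 change of −0.16 ± 0.13 (SE) and a 95% interval of −0.47 to 0.15. Gas5 (ENSMUSG00000053332, chromosome 1, 161034422 to 161038539, plus strand), the growth-arrest transcript, was at 190.2, 226 and 244 FPKM in I/R, against 196, 238 and 208 FPKM in Sham. Its change was 0.04 ± 0.13 with an interval of −0.26 to 0.33, and the direction turned to −0.03 after quantile normalization and −0.04 without I/R replicate 3. With 4038 reads in I/R and 4126 in Sham it was among the best measured members. Snhg1 (chromosome 19, 8723475 to 8726443, plus strand), which begins beside Slc3a2 on the other strand, was at 86.1, 88.9 and 112 FPKM in I/R, against 76.8, 109 and 99.9 FPKM in Sham, a change of 0.01 ± 0.17 that was −0.02 after quantile normalization. Snhg12 (chromosome 4, 132308623 to 132311024, plus strand) was at 89.3, 98.6 and 85.5 FPKM in I/R, against 85.7, 111 and 88.6 FPKM in Sham (−0.06 ± 0.13, and 0.01 after median scaling). Groups overlapped for both.

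The 2 members with the smallest unadjusted p, Snhg9 and Snhg8, host H/ACA snoRNAs. Snhg8 (ENSMUSG00000104960, chromosome 3, 123507552 to 123508404, minus strand), host of Snora24, was at 133, 151 and 149.6 FPKM in I/R, against 91.4, 131 and 121 FPKM in Sham. Every I/R heart was above every Sham heart, by a narrow margin over Sham replicate 2, with means of 145 ± 9.77 FPKM in I/R and 115 ± 20.7 FPKM in Sham (SD, n = 3 each). The log2 change was 0.35 ± 0.15 (interval −0.01 to 0.70; limma, adjusted p = 0.595, unadjusted p = 0.0537), and it was 0.20 without Sham replicate 1, the lowest heart. Snhg9 (ENSMUSG00000090101, chromosome 17, 24719531 to 24719965, minus strand), host of Snora78, was at 32.1, 65.2 and 44.2 FPKM in I/R, against 25.4, 36.3 and 24.3 FPKM in Sham. I/R replicate 1 lay below the highest Sham heart. Its change of 0.66 ± 0.28 (limma, adjusted p = 0.591, unadjusted p = 0.0487) was the largest of any member and rested on 63 reads in I/R and 40 reads in Sham, and it was 0.40 without I/R replicate 2 and 0.90 without its lowest I/R heart, replicate 1. The length behind its FPKM was 183 bases of a 435-base span, and the RefSeq span of Rps2, a ribosomal protein gene, covers it, so its reads are uncertain. Recovered reads and lengths are the smallest that give the FPKM, and both could be larger by a common factor. Snhg4 (chromosome 18, 35553371 to 35558316, plus strand), host of Snora74a, was at 119, 111 and 93.4 FPKM in I/R, against 109, 125 and 99.3 FPKM in Sham (−0.04 ± 0.13, and 0.03 after median scaling), with groups overlapping.

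Snhg3 (ENSMUSG00000085241, chromosome 4, 132348014 to 132353686, minus strand), host of Snora73a and Snora73b, was the lowest member, at 6.22, 2.65 and 3.66 FPKM in I/R and 5.55, 7.62 and 5.10 FPKM in Sham. These values came from 8, 4 and 5 reads in I/R and 9, 12 and 6 reads in Sham, and the change of −0.50 ± 0.29 (limma, adjusted p = 0.709) had an interval of −1.20 to 0.20. The lncRNA Gm17300, listed on the opposite strand over 1611 bases of Snhg3, was at 140.0, 92.3 and 89.7 FPKM in I/R, against 87.5, 96.9 and 104 FPKM in Sham. Sources used here do not give the strand setting, and without strand the reads of Gm17300 and Snhg3 cannot be told apart. The same limit holds where RefSeq spans overlap, as for Gas5 with Zbtb37, Zfas1 with Znfx1 (82 bases), Snhg6 with Mcmdc2 and Snhg14 with Ube3a and Snrpn.

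**Figure D2:**
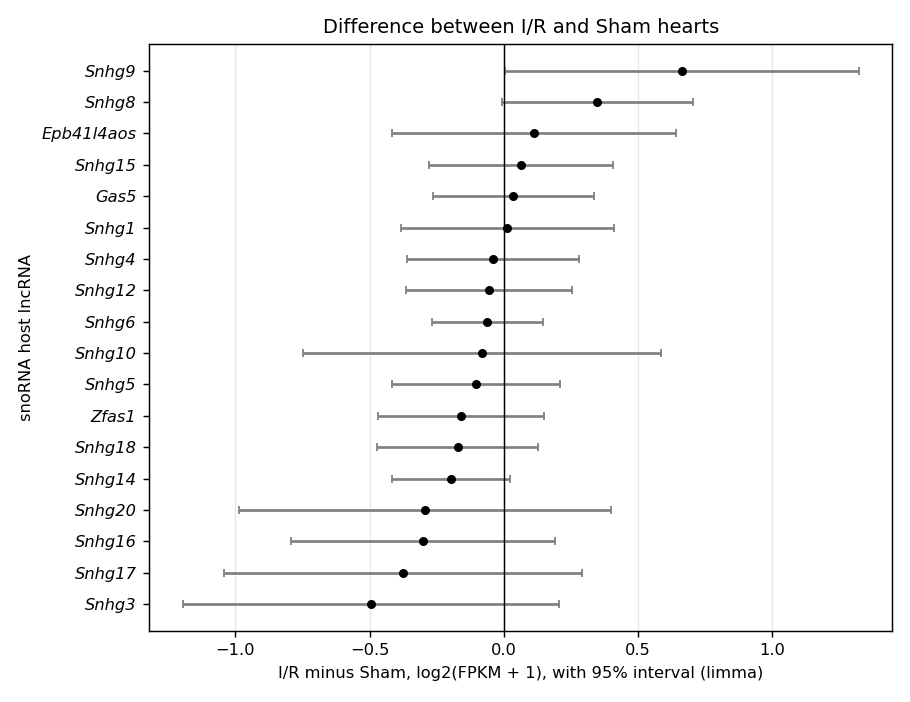
Difference of each host lncRNA between I/R and Sham hearts in log2(FPKM + 1), with the 95% interval from limma (n = 3 hearts per group). The intervals of 17 of 18 members span 0, and that of Snhg9 begins at 0.0050.

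Snhg14, Snhg6 and Snhg18 are hosts of C/D snoRNAs with little spread in I/R. Snhg14 (ENSMUSG00000100826, chromosome 7, 59307924 to 59975759, minus strand) was at 99.1, 95.9 and 99.8 FPKM in I/R, against 114, 119.8 and 105 FPKM in Sham. All 3 I/R hearts lay below all Sham hearts, with means of 98.3 ± 2.06 FPKM in I/R and 113 ± 7.43 FPKM in Sham (SD, n = 3 each). The change was −0.20 ± 0.09 (interval −0.42 to 0.02; limma, adjusted p = 0.614). Snhg14 had the most reads of all members, 4825 in I/R and 5873 in Sham, and its change ranged from −0.25 to −0.15 with 1 heart left out. The RefSeq transcript begins farther upstream, at 60450177, than the span in the table. Its overlapping neighbour Ube3a, the ubiquitin ligase gene on the opposite strand that neurons silence on the paternal allele through this transcript, was at 6.79 ± 0.942 FPKM in I/R and 7.05 ± 1.87 FPKM in Sham (−0.03 ± 0.22). The FPKM of the 2 classes rest on separate library totals, so a level of Ube3a cannot be set against one of Snhg14.

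Snhg6 (ENSMUSG00000098234, chromosome 1, 9941959 to 9944118, minus strand), host of Snord87, was at 77.0, 78.8 and 80.8 FPKM in I/R, against 81.2, 82.8 and 82.9 FPKM in Sham. The groups did not overlap, yet the lowest Sham heart and the highest I/R heart were less than 1 FPKM apart and the change was −0.06 ± 0.09, or 0.01 after median scaling. Its SD was 2.43% of the mean in I/R and 1.16% in Sham, where read counting alone gives 8.09% and 7.78%. Snhg18 (chromosome 15, 32240565 to 32244662, minus strand), host of Snord123, was at 23.7, 23.8 and 24.9 FPKM in I/R, against 28.2, 29.8 and 24.3 FPKM in Sham (−0.17 ± 0.13). Only Sham replicate 3 reached the I/R range. In all, groups did not overlap for 3 of 18 members (16.7%), beside 13.7% of all genes tested, a share near the background. I/R was above in 1 (7.1% of all genes, 5.87% of lncRNAs) and below in 2 (6.57% of all genes, 7.61% of lncRNAs).

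In 5 members, chosen after the values were seen, I/R replicate 1 was well above the other I/R hearts. Snhg17 (ENSMUSG00000085385, chromosome 2, 158353700 to 158361580, minus strand) was at 29.7, 14.8 and 14.5 FPKM in I/R replicates 1, 2 and 3, against 27.9, 23.6 and 22.1 FPKM in Sham. The value of I/R replicate 1 was above every Sham heart and those of the other I/R hearts were below every Sham heart, from 256, 150 and 133 reads. Snhg20 (chromosome 11, 117076790 to 117078955, plus strand) was at 29.6, 18.95 and 15.0 FPKM in I/R, against 33.9, 19.5 and 24.1 FPKM in Sham. Snhg16, host of Snord1a to Snord1c and listed with no coordinates, was at 50.2, 34.5 and 33.2 FPKM in I/R, against 54.4, 38.6 and 51.9 FPKM in Sham. In Sham the same 2 members were lowest in replicate 2.

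Snhg10 (chromosome 12, 105030617 to 105032279, minus strand) was at 17.1, 8.77 and 8.07 FPKM in I/R, against 10.2, 11.9 and 12.2 FPKM in Sham, from 10 to 20 reads per heart. Epb41l4aos (chromosome 18, 33794892 to 33795986, plus strand), named as the opposite-strand transcript of Epb41l4a, was at 107, 69.8 and 66.3 FPKM in I/R, against 62.5, 91.0 and 68.9 FPKM in Sham. I/R replicate 1 was at least 1.4 times the next I/R heart in these 5 and in Snhg3, whose I/R spread was close to counting error, 6 of 18 members in all (33.3%), where it was so in 9.13% of the 4470 lncRNAs at least as abundant as the lowest member. I/R replicate 2 did so in 1 member (Snhg9), I/R replicate 3 in 0, and Sham replicates 1, 2 and 3 in 1, 1 and 0. Without a fold threshold, I/R replicate 1 was the highest I/R heart for 8 of 18 members, beside 41.4% of all lncRNAs tested, a share near the background. I/R replicate 1 was the lowest I/R heart for 8 of 18 (Zfas1, Gas5, Snhg8, Snhg1, Snhg6, Snhg5, Snhg9 and Snhg18). That is a larger share than the 31.8% of all lncRNAs tested, and the difference was not tested. Fibroblast markers summed to 314 FPKM in I/R replicate 1, between 293 and 333 FPKM in replicates 2 and 3, and cardiomyocyte markers to 12201 FPKM, beside 11430.4 and 12008 FPKM. Endothelial markers were highest in I/R replicate 1 (145 FPKM, beside 141 and 115) and macrophage markers lowest (1096 FPKM, beside 1131 and 1191). Sums of blood and lymphocyte markers lay between those of replicates 2 and 3. The cause of the high values was not tested.

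**Figure D3:**
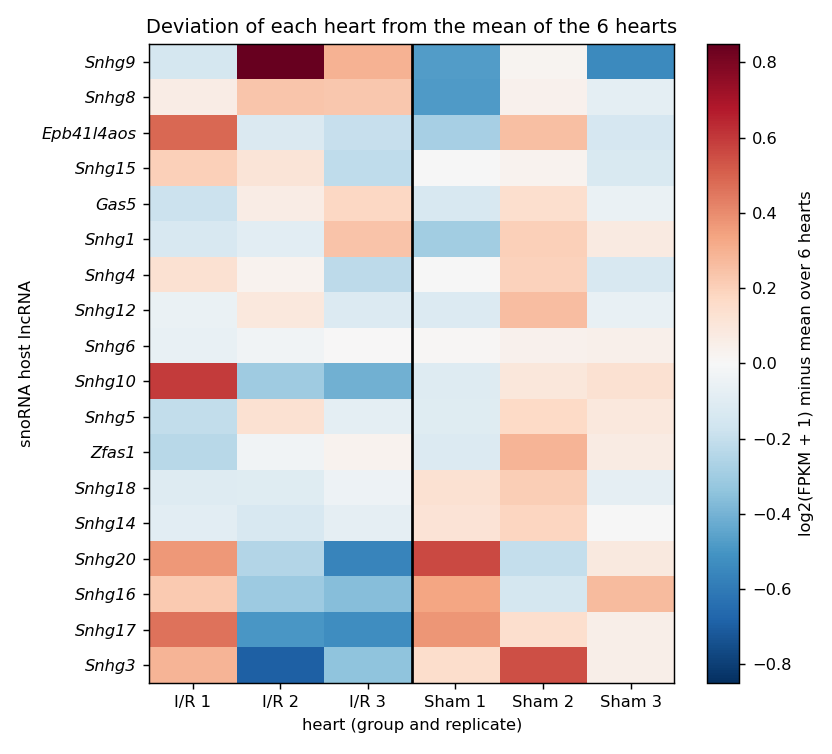
Deviation of each heart from the mean of the 6 hearts for each host lncRNA, in log2(FPKM + 1), with I/R hearts left of the line and Sham hearts right of it. I/R replicate 1 is above the other I/R hearts for Snhg17, Snhg20, Snhg16, Snhg10, Snhg3 and Epb41l4aos, and Sham replicate 2 is the highest Sham heart for 13 of 18 members.

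Leaving out a heart picked for being highest lowers the I/R mean, so the direction of the following shifts was set by that choice and they are given as values only. Without I/R replicate 1 the log2 change was −0.70 for Snhg17, in place of −0.37 ± 0.28, −0.49 for Snhg16, in place of −0.30 ± 0.21, and −0.55 for Snhg20, in place of −0.29 ± 0.29. It was −0.40 for Snhg10, in place of −0.08 ± 0.28, −0.76 for Snhg3, in place of −0.50, and −0.10 for Epb41l4aos, in place of 0.11 ± 0.22. The smallest adjusted p of a member without this heart was 0.324 (limma, Snhg17).

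Neither of the remaining hosts passed the test. Snhg5 (chromosome 9, 88521050 to 88522929, minus strand) was at 52.3, 66.4 and 57.1 FPKM in I/R, against 56.3, 68.0 and 64.3 FPKM in Sham (−0.10 ± 0.13). Snhg15 (chromosome 11, 6525591 to 6528760, minus strand) was at 38.2, 35.9 and 28.4 FPKM in I/R, against 33.2, 33.9 and 30.3 FPKM in Sham, with a change of 0.06 ± 0.14 that was −0.02 without I/R replicate 1. Groups overlapped in each. For the 10 members at 50 FPKM or more, the 95% intervals of all changes lay between −0.47 and 0.70, while those of Snhg3, Snhg17 and Snhg9 reached −1.20, −1.04 and 1.32.

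**Figure D4:**
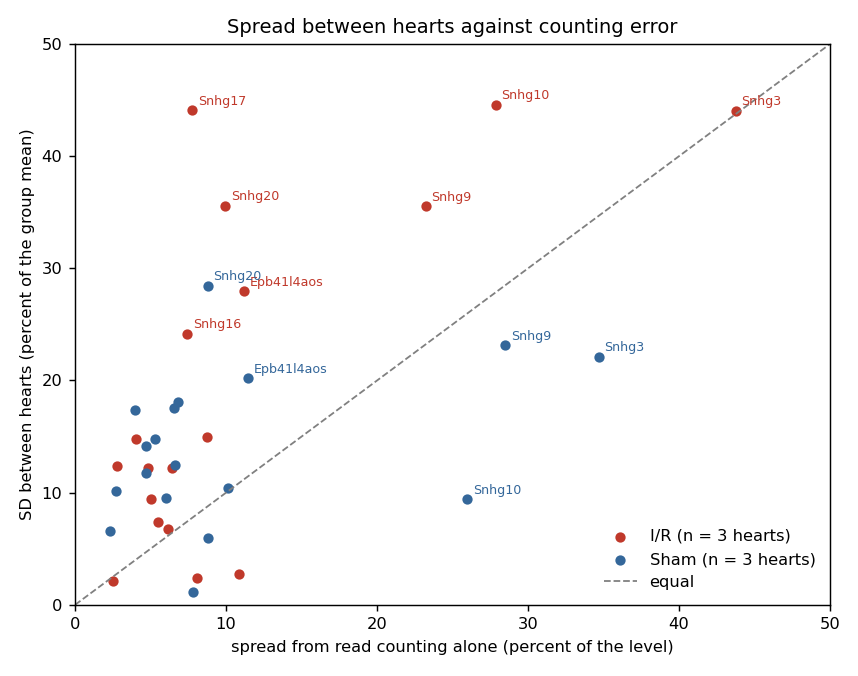
SD between the 3 hearts of a group as a percentage of the group mean (vertical) against the spread that counting the recovered reads gives alone (horizontal), 1 point per host lncRNA and group, I/R in red and Sham in blue, with a dashed line where both are equal. The spread exceeded counting error for 15 of 18 members in I/R and 13 of 18 in Sham, with Snhg17 in I/R farthest above the line, at 44.1% against 7.77%.

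The SD between hearts had a median of 13.6% of the mean in I/R and 13.3% in Sham, and was larger in I/R for 12 of 18 members. For Snhg17 in I/R it was 44.1% where counting gives 7.77%, and for Snhg20 35.6% where counting gives 9.95%. For Snhg3 in I/R it was 44.1% where counting alone gives 43.8%, so differences between hearts were not detectable at this depth.

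Genes around the host lncRNAs in the pathway also gave no call. Of 19 genes of snoRNA-protein particles and their assembly 9 were tested, 8 above and 1 below 0, with a median change of 0.05 and 0 at an unadjusted p under 0.05. Znhit3, an assembly factor of C/D particles, had the smallest p, at 0.880 ± 0.593 FPKM in I/R and 1.64 ± 0.394 FPKM in Sham (−0.52 ± 0.27; limma, adjusted p = 0.660). Its values rest on 12, 5 and 4 recovered reads in I/R and 13, 20 and 11 in Sham. Nop10, a protein of H/ACA particles, was at 82.4 ± 11.1 FPKM in I/R and 76.1 ± 3.83 FPKM in Sham (0.11 ± 0.12), and Ruvbl1, an ATPase of the assembly complex, at 18.1 ± 1.16 FPKM in I/R and 17.5 ± 1.24 FPKM in Sham (0.05 ± 0.13). Of 19 genes of nonsense-mediated decay and the exon junction complex 7 were tested, 4 above and 3 below 0 (median 0.01, 0 at an unadjusted p under 0.05). Smg6, the endonuclease of this decay, was at 1.32 ± 0.382 FPKM in I/R and 2.66 ± 1.02 FPKM in Sham (−0.63 ± 0.28; limma, adjusted p = 0.598), and Magoh, a core protein of the exon junction complex, at 12.1 ± 0.884 FPKM in I/R and 9.53 ± 1.41 FPKM in Sham (0.32 ± 0.17). For Smg6 the recovered reads were 9, 9 and 5 in I/R and 25, 20 and 8 in Sham.

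Of 31 protein-coding genes with snoRNAs in their introns 10 were tested, 6 above and 4 below 0, with a median of 0.05 that was −0.11 with a filter at 1 FPKM. The smallest p was that of Rpl5, a ribosomal protein gene, at 2.61 ± 0.442 FPKM in I/R and 4.18 ± 1.01 FPKM in Sham (−0.51 ± 0.22; limma, adjusted p = 0.596), with all I/R hearts below all Sham hearts. Rack1, a protein of the small ribosomal subunit, was at 0.889 ± 0.318 FPKM in I/R and 0.396 ± 0.162 FPKM in Sham (0.43 ± 0.22), with all I/R hearts above, and Nap1l4, a histone chaperone gene, at 17.3 ± 1.37 FPKM in I/R and 22.8 ± 4.78 FPKM in Sham (−0.36 ± 0.18). Rpl5 rests on 20, 18 and 15 recovered reads in I/R and 32, 27 and 32 in Sham. Rack1 rests on 7, 16 and 9 in I/R and 3, 7 and 5 in Sham, so its separation rests on few reads. Hspa9, the mitochondrial chaperone, was at 469.5 ± 9.54 FPKM in I/R and 462 ± 23.2 FPKM in Sham (0.02 ± 0.08), and nucleolin (Ncl) at 32.5 ± 5.90 FPKM in I/R and 30.7 ± 2.57 FPKM in Sham (0.07 ± 0.16). Of 24 ribosome biogenesis genes 11 were tested, 7 above and 4 below 0 (median 0.06). Ubtf, the factor that keeps ribosomal DNA open for RNA polymerase I, was the one at an unadjusted p under 0.05, at 3.36 ± 0.516 FPKM in I/R and 5.003 ± 0.295 FPKM in Sham (−0.47 ± 0.18; limma, adjusted p = 0.559). Of 18 regulators of TOP mRNAs and mTORC1, the kinase complex that controls their translation, 9 were tested, 3 above and 6 below 0 (median −0.14). Tsc2, an inhibitor of mTORC1, was the one at an unadjusted p under 0.05, at 0.670 ± 0.193 FPKM in I/R and 1.48 ± 0.275 FPKM in Sham (−0.57 ± 0.20; limma, adjusted p = 0.525). These values rest on 2, 2 and 3 recovered reads in I/R and 5, 7 and 5 in Sham. Of 13 other named lncRNAs, which the name rule does not take in, 10 were tested, 6 above and 4 below 0 (median 0.15). Whether these lncRNAs also carry snoRNAs was not examined. Rian, of the imprinted Dlk1-Dio3 region, was the one at an unadjusted p under 0.05, at 35.7 ± 5.95 FPKM in I/R and 26.3 ± 1.39 FPKM in Sham (0.41 ± 0.15; limma, adjusted p = 0.537). Malat1 was at 32779 ± 3048 FPKM in I/R and 32810.0 ± 1617 FPKM in Sham. Medians over all protein-coding genes and lncRNAs tested were 0.02 and −0.03. Of all genes tested 8.44%, and of lncRNAs 10.8%, were at an unadjusted p under 0.05. Groups did not overlap for 13.7% of all genes tested. The protein-coding rows hold 36.8% to 39.9% of the totals behind their FPKM, so levels of protein-coding genes can miss part of a gene's reads.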

How the data were processed

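Poly(A) RNA of 6 mouse hearts was sequenced, per the labels' protocols. Values are FPKM computed and deposited by the authors, 1 column per library. Tools listed, per the submitters' processing notes, are HISAT2 2.1.0, HTSeq 0.10.0, fastp 0.23.0 and bcl2fastq 2.19.1.403, and builds mm10, GRCm38 and GRCm39, with no role stated. For annotation and strand setting the sources used here give nothing.

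Of 21198 rows, 40 repeats were dropped and protein-coding transcripts were summed per gene. Genes averaging 0.5 FPKM or more were tested on log2(FPKM + 1) with limma 3.58.1 in R 4.3.3 (group only, variance trend, two-sided, Benjamini-Hochberg over all 12114 genes). Reads were recovered as the smallest whole numbers (within 0.001) that give the FPKM of all 6 libraries, for 9413 of 9413 lncRNA rows. They give counting error only, and where a row's true reads and length share a factor, reads are too low and counting error too high. Recovery and the limma step were run on simulated data with simpler settings. There the recovery was given known totals and limma the same spread for all genes, so the runs do not measure error on these data. Tables were made with Python 3.11.15, numpy 2.4.6 and pandas 2.3.3, and figures with matplotlib 3.10.9. Alternatives were other pseudocounts, filters, scalings and variance models, lncRNAs alone, limma voom on the reads, a replicate block and each heart left out.

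The members and lists were chosen with earlier results of these data known. Every member was to be named, with up to 4 genes of smallest p and 3 of highest level per list, and protein-coding neighbours that overlap a member or start within 5 kb. Overlapping lncRNAs, the motifs and the 1.4-fold comparison of single hearts were added after the values were seen. The labels call the 3 hearts of a group biological replicates.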

Additional observations from a re-analysis of the deposited data

How the results depend on the processing

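Limma called 0 genes and 0 members after adjustment under every alternative run, in all 17, with a smallest adjusted p over the members of 0.324. Counts at an unadjusted p under 0.05 were 1023 genes with the settings described and 1053 with limma voom on the recovered reads. The replicate block gave 0 adjusted calls and 1125 genes at an unadjusted p under 0.05, with 2 members at that level; same-numbered hearts had r of deviations of 0.15, 0.0283 and 0.0287, 2 of 3 I/R hearts correlated best with their own number, and they were not treated as pairs. The median change of the members was −0.07, or −0.13 to −0.05 with 1 heart left out and −0.00275 after median scaling, and the ratio of summed levels was 0.988, or 0.951 to 1.04 with 1 heart left out.

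Of 306 pairs of a member and an alternative, 17 had the other direction, in 8 members. Median scaling moved every member up by the same amount, so its reversals are 1 common shift: Snhg12 was at 0.0131, Snhg4 at 0.0267 and Snhg6 at 0.00741, and after quantile normalization Gas5 was at −0.0273 and Snhg1 at −0.0165. With 1 heart left out, Epb41l4aos ranged from −0.10 to 0.27, Snhg15 from −0.0208 to 0.19, Snhg10 from −0.40 to 0.10, Gas5 from −0.0423 to 0.14, Snhg1 from −0.13 to 0.12, Snhg4 from −0.12 to 0.0583 and Snhg12 from −0.13 to 0.0614. The protein-coding snoRNA host genes had a median of −0.00990 unfiltered and −0.11 when filtered at 1 FPKM, which changes the genes tested, and −0.0252 to 0.0784 with 1 heart left out. That of the mTORC1 list was −0.17 to −0.0605. The cause of these shifts was not tested. Depth limits Snhg3, Snhg9 and Snhg10, with 4 to 31 reads per heart.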

Other observations

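The level of Zfas1, the most abundant member, was compared with that of 5149 genes averaging 10 FPKM or more. The sodium pump subunit gene Atp1b1 was most like it, with a Pearson r of 0.9996 over 6 hearts on log2(FPKM + 1), followed by the lncRNAs Gm38374 (0.98), Gm44423 (0.98) and Gm10143 (0.97) and the connexin gene Gja1 (0.96). Atp1b1 was at 311, 354 and 364 FPKM in I/R and 336, 424 and 375 FPKM in Sham. All these genes were measured in the same hearts as Zfas1, but the FPKM of Atp1b1 and Gja1 rest on the separate protein-coding totals. They were picked as the highest r of 5149 genes over only 6 hearts, and that choice alone favours very high values. No test was made.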
